A study of Homo sapiens with 3 samples.

Results

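The guides described here were those lost from a pooled knockout library in 2 separate day 14 cultures of the gastric cancer line NUGC3, an established human line. In a GeCKO screen each cell carries 1 guide RNA, which directs the nuclease Cas9 to cut 1 gene, and the reads of a guide in genomic DNA stand for the number of its carriers. The cultures were grown to day 14 with 10 nM RTX, which the labels do not spell out, or to day 14 with the solvent DMSO, and were set against the DMSO library of day 0. All 3 libraries come from the same guide library in the same line, and all guide names carry the prefix HGLibA. Each group was 1 library. A treatment note gives the day 0 group 14 days of DMSO, against its title, and groups follow the titles. A guide was counted as lost when its normalized value at day 0 was at least 100 and its ratio to day 0 was at most 0.25 in RTX and also at most 0.25 in DMSO. Of 62916 guides, 53709 reached the day 0 minimum, and 85 of these (0.158%, exact 95% interval 0.126% to 0.196%) met the rule. The members were chosen by these ratios and day 0 values, so all values below are descriptions without a test, and intervals and floors cover counting error only. No difference between libraries has a replicate check.

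Cells that lose a gene they need divide more slowly or die, and their guides dwindle over the divisions that follow. In most dividing lines such genes serve housekeeping work, among them transcription, splicing, protein degradation, DNA replication, chromosome segregation, secretion and nuclear transport. Several guides to a gene differ in how often they disrupt it, so a strong loss of 1 guide need not be matched by the others. A cut is itself a burden to the cell, and guides with more than 1 matching site cut at all of these sites.

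The sequences of the guides were not used here. For the 5 members that target microRNAs, the mature sequences are shown to say what the named loci encode, and RefSeq (GRCh38.p14) gave them for 4 of the 5 targets. MicroRNAs are short RNAs that repress messenger RNAs, and the capitals mark the seed, bases 2 to 8, which pairs with the targets. The loci are on chromosome 1 for hsa-mir-6859-2, 11 for hsa-mir-1304, 12 for hsa-mir-6880 and 16 for hsa-mir-1972-1.
hsa-miR-6859-5p: gAGAGGAAcaugggcucaggaca
hsa-miR-6859-3p: uGACCCCCaugucgccucuguag
hsa-miR-1304-5p: uUUGAGGCuacagugagaugug
hsa-miR-6880-5p: uGGUGGAGgaagagggcagcuc
hsa-miR-1972: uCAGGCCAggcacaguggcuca
No seed was shared among these 5 mature sequences. Both products of hsa-mir-6859-2 were encoded at 4 loci, and the 4 MIR6859 hairpins, on 3 chromosomes, had 1 and the same sequence. The hsa-miR-1972 sequence was encoded at 2 loci, whereas those of hsa-miR-1304-5p and hsa-miR-6880-5p were each encoded at 1.

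The hsa-mir-6859-2 guide had 12 reads in RTX and 0 in DMSO, against 99 at day 0. Its other guide had 203 reads in RTX and 164 in DMSO, against 332 at day 0, so it lay above the limit in both cultures. The hsa-mir-1972-1 guide, the only one of that target in the tables, had 49 reads in RTX and 23 in DMSO, against 238 at day 0. The hsa-mir-1304 guide had 27 reads in RTX and 9 in DMSO, against 151 at day 0. A second hsa-mir-1304 guide also lay low, with 55 reads in RTX and 19 in DMSO, against 119 at day 0, while the ratios of the remaining guides to it were 0.54 and 0.568 in RTX and 0.624 and 0.511 in DMSO. The hsa-mir-6880 guide had 12 reads in RTX and 12 in DMSO, against 99 at day 0, and its other guides had ratios of 0.942 to 1.79 in RTX and 0.76 to 1.12 in DMSO. The hsa-mir-483 guide had 23 reads in RTX and 35 in DMSO, against 128 at day 0. Of all eligible microRNA guides, 5 of 5136 (0.0974%, exact interval 0.0316% to 0.227%) were lost in both cultures. The share of guides to protein-coding and other genes was 80 of 47723 (0.168%, exact interval 0.133% to 0.209%), and the 2 intervals overlapped.

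The 3 libraries held 17344507 reads in RTX, 18805737 in DMSO and 16547572 at day 0, with median reads per guide of 232, 251 and 230 in the same order. Non-targeting guides, which have no site in the genome, gave the rate of loss without a cut and without a knockout. Their median ratios to day 0 were 1.06 in RTX and 1.14 in DMSO, against 0.997 and 0.998 for all eligible guides. The same limits thus lay further below the median for them. None of 850 eligible non-targeting guides was lost in both cultures, which allows a share of up to 0.353%. This limit lies above the 0.158% of all guides, so the 850 guides are too few to show that the members were lost more often than non-targeting guides. One non-targeting guide was at most 0.25 in RTX (0.118%) and none in DMSO, against 0.477% and 1.3% of all eligible guides. The non-targeting guide nearest to the rule had 44 reads in RTX and 48 in DMSO, against 119 at day 0, with ratios of 0.368 and 0.361. At the wider limit of 0.5 in both cultures, 4 of 850 non-targeting guides (0.471%, exact interval 0.128% to 1.2%) passed, against 813 of all eligible guides (1.51%).

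Reads of the members fell to a median of 31 in RTX (range 0 to 185) and 35 in DMSO (0 to 217), against 180 at day 0 (97 to 893). Together the members took 0.0207% of the reads in RTX and 0.0189% in DMSO, against 0.123% at day 0. The median ratio to day 0 was 0.189 in RTX and 0.156 in DMSO, where all eligible guides had medians of 0.997 and 0.998. For 11 members at most 10% of the day 0 value was left in RTX and for 22 in DMSO, and 4 were at or below that level in both. One member had 0 reads in RTX and 3 had 0 in DMSO, but no member was at 0 in both. Most members lay close to the limit: for 54 of 85 the larger ratio exceeded 0.2. The exact 95% counting interval of the ratio stayed at or under 0.25 in both cultures for 21 members. In the authors' deposited tables, all 85 had an FDR under 0.05 in both comparisons with day 0, a call that 1.45% of eligible guides received in the lower direction in both. These FDRs rest on the same values as the rule, so nothing is read from this count.

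The members nearest to the limit were guides to PFDN2, ECD and SKP1, with ratios in DMSO of 0.2491, 0.249 and 0.2482. Just outside it were guides to CUL1, with 0.1391 in RTX and 0.2504 in DMSO, to the Mediator subunit MED8, with 0.2365 in RTX and 0.2509 in DMSO, and to THOC3, with 0.2538 in RTX and 0.1668 in DMSO. At the day 0 minimum, the lowest members were guides to CDC45, COPB2 and MRPL44, with normalized values of 103, 104.1 and 104.1. Guides to DGCR8, TEX28 and PTPN23 met both ratios but had day 0 values of 98.75, 96.62 and 96.62.

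The 85 guides targeted 83 genes or microRNA loci out of 20352 with an eligible guide. In 81 of them 1 guide was lost, in 2 of them 2 guides, and in none 3. The 2 targets with 2 lost guides were PKMYT1, the kinase that holds the mitotic kinase CDK1 inactive, and DDX39B, an RNA helicase that couples splicing to the export of messenger RNA. Of the PKMYT1 guides, HGLibA_44121 had 40 reads in RTX and 35 in DMSO, against 180 at day 0. HGLibA_44123 had 26 reads in RTX and 3 in DMSO, against 128 at day 0. The third PKMYT1 guide had 70 reads in RTX and 52 in DMSO, against 146 at day 0, so all 3 were lower in both cultures than at day 0. The DDX39B guide HGLibA_12699 had 32 reads in RTX and 23 in DMSO, against 163 at day 0. HGLibA_12698 had 29 reads in RTX and 87 in DMSO, against 319 at day 0. The third DDX39B guide had a ratio of 0.397 in RTX and 0.804 in DMSO, so it was lower in RTX than in DMSO.

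In 4 genes with at least 2 guides in the tables, every guide was at or below a ratio of 0.5 in both cultures, namely PKMYT1, SKP1, MAD2L1 and CDIPT. Guides under the day 0 minimum were included here. The same count over all screened genes was not made, so whether 4 is many cannot be said. SKP1 is the adaptor that ties F-box proteins to cullin ligases. Its lost guide had 41 reads in RTX and 51 in DMSO, against 184 at day 0, and the others had 98 and 272 in RTX and 55 and 213 in DMSO, against 324 and 702 at day 0. MAD2L1 is the spindle checkpoint protein MAD2. Its lost guide had 45 reads in RTX and 7 in DMSO, against 213 at day 0, and the others, both under the day 0 minimum, had 27 and 17 in RTX and 18 and 41 in DMSO, against 80 and 84 at day 0. CDIPT makes phosphatidylinositol. Its lost guide had 19 reads in RTX and 22 in DMSO, against 121 at day 0, and the others had 81 and 14 in RTX and 8 and 1 in DMSO, against 220 and 55 at day 0.

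The other eligible guides of these targets, which the rule did not pick, numbered 125 over 74 targets. Of these, 21 (16.8%, exact interval 10.7% to 24.5%) were at or below 0.5 in both cultures, against 728 of 53624 eligible guides that were not members (1.36%, interval 1.26% to 1.46%). Their median ratio was 0.715 in RTX and 0.597 in DMSO, against 0.998 and 0.999 for all non-members, and 88 of them (70.4%) were below 1 in both cultures, against 30.5%. These 125 guides were read in the same 3 libraries as the members, and the day 0 library is the denominator of both ratios. For 9 of the 83 targets no other guide reached the day 0 minimum.

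The same count was made for guides lost in only 1 culture. Of guides lost in DMSO only there were 615, and the other eligible guides of their targets numbered 867, of which 53 (6.11%, exact interval 4.61% to 7.92%) were at or below 0.5 in both cultures. Of guides lost in RTX only there were 171, and 21 of 295 other guides (7.12%, interval 4.46% to 10.7%) were at or below that ratio. The interval of 10.7% to 24.5% for the targets lost in both lay above the first of these and met the upper end of the second. Some targets had guides in more than 1 of these sets, guides were left out only from their own set, and the difference was not tested.

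The members were then set against 25 lists of genes by function, taken from textbook roles. These lists were chosen with earlier results of these data known, so their shares are descriptions only. They covered 2769 eligible guides to 1094 genes, and 32 of these guides (1.16%, exact interval 0.792% to 1.63%) were lost in both cultures, against 0.158% of all eligible guides. Genes in no list, without olfactory receptors and microRNAs, had 48 of 44015 guides lost (0.109%, interval 0.0804% to 0.145%). The lists thus held 37.6% of the members (interval 27.4% to 48.8%), although they held 5.16% of eligible guides. The share was 41.8% for guides lost in DMSO only (interval 37.9% to 45.8%) and 21.6% for guides lost in RTX only (interval 15.7% to 28.6%). Members were found in 14 lists and in 11 there were none. Of guides to olfactory receptors, receptors of the nose that a gastric line was taken not to use, 0 of 939 were lost in both. This allows a share of up to 0.319%, above the 0.158% of all eligible guides, so 939 guides are too few to show a lower share.

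Among the 25 lists, nuclear pore and export proteins had the most members, 6 of 117 eligible guides (5.13%, exact interval 1.9% to 10.8%), against 0.158% of all eligible guides. Besides the DDX39B guides these were guides to GLE1, RANGAP1, THOC7 and TNPO3. GLE1 releases messenger RNA at the pore, and its guide had 68 reads in RTX and 46 in DMSO, against 282 at day 0. RANGAP1 activates the Ran GTPase that sets the direction of transport, and its guide had 48 reads in RTX and 97 in DMSO, against 366 at day 0. THOC7 belongs to the THO export complex, and its guide had 31 reads in RTX and 27 in DMSO, against 139 at day 0, with a second guide at ratios of 0.402 in RTX and 0.335 in DMSO. The remaining THOC7 guide had ratios of 0.969 in RTX and 1.12 in DMSO. TNPO3 imports splicing factors, and its guide had 64 reads in RTX and 36 in DMSO, against 267 at day 0. The other guides had ratios of 1.11 and 0.862 in RTX and 1.42 and 0.851 in DMSO for RANGAP1, of 1.1 and 0.841 in RTX and 0.638 and 0.446 in DMSO for GLE1, and of 0.659 and 1.4 in RTX and 0.639 and 2.32 in DMSO for TNPO3, so none of them was at or below 0.5 in both cultures. A guide to PHAX, the export adaptor of small nuclear RNAs, which the list does not hold, had 62 reads in RTX and 46 in DMSO, against 290 at day 0.

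Proteins of mitosis had 5 members among 212 guides (2.36%, interval 0.77% to 5.42%, against 0.158% of all eligible guides). Of these members, 3 targeted subunits of the anaphase-promoting complex, the ligase that ends mitosis. The CDC27 guide had 21 reads in RTX and 6 in DMSO, against 145 at day 0. The CDC23 guide had 39 reads in RTX and 33 in DMSO, against 244 at day 0. The ANAPC5 guide had 83 reads in RTX and 85 in DMSO, against 383 at day 0. The other CDC27 guides had ratios of 0.327 and 1.64 in RTX and 0.344 and 0.798 in DMSO. The other CDC23 guides had 0.421 and 0.788 in RTX and 0.322 and 0.986 in DMSO. For ANAPC5, the other eligible guide had 0.77 in RTX and 0.704 in DMSO. The remaining ANAPC5 guide, under the day 0 minimum, had 0 reads in RTX and 0 in DMSO, against 10 at day 0. The other members of the list were the MAD2L1 guide and a guide to CENPI, a protein of the inner kinetochore, with 26 reads in RTX and 15 in DMSO, against 128 at day 0. Its other guides had ratios of 0.863 and 1.05 in RTX and 0.583 and 0.979 in DMSO.

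Genome copying and its guard held 3 members in the lists. CDC45, part of the replicative helicase, had 17 reads in RTX and 5 in DMSO, against 97 at day 0, and a second CDC45 guide under the day 0 minimum had 2 in RTX and 7 in DMSO, against 84 at day 0. The remaining CDC45 guide, which reached that minimum, had ratios of 1.11 in RTX and 0.597 in DMSO. POLD3, a subunit of DNA polymerase delta, had 17 reads in RTX and 12 in DMSO, against 150 at day 0, but its other guides had ratios of 0.59 and 1.01 in RTX and 0.599 and 1.59 in DMSO. These were 2 of 160 replication guides (1.25%, interval 0.152% to 4.44%). RAD17, which loads the checkpoint clamp at stalled forks, had 27 reads in RTX and 50 in DMSO, against 230 at day 0. It was the 1 member among 25 guides of the replication checkpoint (4%, interval 0.101% to 20.4%). From the cohesin and condensin list came 1 of 72 guides (1.39%, interval 0.0352% to 7.5%), to the condensin subunit SMC2. That guide had 25 reads in RTX and 8 in DMSO, against 163 at day 0. The 0.158% of all eligible guides lay inside the intervals of the replication, checkpoint and condensin lists. No cohesin gene, no gene of the MYC network (0 of 28 guides) and no Mediator gene (0 of 86) had a member, and these counts of 0 allow shares of up to 10.7% for the MYC network and 3.49% for Mediator. With equal library totals, and also when scaled to the non-targeting guides, 1 of the 86 Mediator guides (1.16%) met the rule. At or below 0.5 in both cultures were 4 of the 86 Mediator guides (4.65%) and 0 of the 28 MYC network guides, against 1.51% of all eligible guides.

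The proteasome, which degrades ubiquitinated proteins, had 4 members among 97 guides (4.12%, interval 1.13% to 10.2%, against 0.158% of all eligible guides). The PSMA3 guide had 25 reads in RTX and 1 in DMSO, against 109 at day 0. The PSMA6 guide had 40 reads in RTX and 16 in DMSO, against 166 at day 0. The PSMA4 guide had 106 reads in RTX and 134 in DMSO, against 541 at day 0. All 3 encode subunits of the outer ring of the core. PSMC3, an ATPase of the regulatory particle, had 37 reads in RTX and 9 in DMSO, against 158 at day 0. The other guides had ratios of 0.257 and 1.3 in RTX and 0.474 and 0.597 in DMSO for PSMA3. For PSMA6 they had 0.0481 and 1.57 in RTX and 0.361 and 0.658 in DMSO. For PSMA4 they had 1.23 and 0.99 in RTX and 1.48 and 0.245 in DMSO. For PSMC3 they had 1.06 and 0.582 in RTX and 0.613 and 1.52 in DMSO. Of the whole list, 22 of 97 guides (22.7%) were at or below 0.5 in both cultures, against 1.51% of all eligible guides. Outside the list, further members act on ubiquitin. The guide to UBE2N, which makes signalling ubiquitin chains, had 100 reads in RTX and 39 in DMSO, against 526 at day 0, and that to the ligase UBR4 had 67 in RTX and 56 in DMSO, against 285 at day 0.

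RNA polymerase II and its factors had 4 members among 195 guides (2.05%, interval 0.562% to 5.17%, against 0.158% of all eligible guides). POLR2A, the largest subunit of the polymerase, had 21 reads in RTX and 27 in DMSO, against 108 at day 0. TAF2, a subunit of the initiation factor TFIID, had 104 reads in RTX and 85 in DMSO, against 430 at day 0. SUPT16H, a subunit of the histone chaperone FACT, had 63 reads in RTX and 48 in DMSO, against 260 at day 0. GPN1, a GTPase needed to bring the polymerase into the nucleus, had 134 reads in RTX and 217 in DMSO, against 893 at day 0, the highest day 0 count of any member. The other POLR2A guides had ratios of 0.765 and 1.25 in RTX and 0.597 and 1.56 in DMSO, and those of GPN1 had 0.87 and 1.23 in RTX and 0.927 and 0.892 in DMSO.

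The spliceosome had 1 member among 200 guides (0.5%, interval 0.0127% to 2.75%, against 0.158% of all eligible guides). That guide, to the branch-site factor SF3A3, had the lowest ratio of the summed day 14 values to the summed day 0 values of all 85 (0.0322). It had 5 reads in RTX and 3 in DMSO, against 118 at day 0, with ratios of 0.0422 in RTX and 0.0228 in DMSO. The other SF3A3 guides had 59 and 240 reads in RTX and 170 and 120 in DMSO, against 58 and 238 at day 0, so neither was low in RTX. In all, 32 of the 200 spliceosome guides (16%) were at or below 0.5 in both cultures, against 1.51% of all eligible guides. Members outside the list bind or process RNA too. The guide to PUF60, a splicing factor, had 16 reads in RTX and 13 in DMSO, against 101 at day 0. Guides to ARGLU1 and RSRC2, arginine-rich nuclear proteins, had 62 and 38 reads in RTX and 68 and 47 in DMSO, against 258 and 210 at day 0. EWSR1, an RNA-binding protein known from fusions in Ewing sarcoma, had 45 reads in RTX and 45 in DMSO, against 395 at day 0. PCBP2, which binds C-rich RNA, had 36 reads in RTX and 59 in DMSO, against 239 at day 0. RBM14, a coactivator with RNA-binding domains, had 37 reads in RTX and 11 in DMSO, against 150 at day 0.

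The lists of protein synthesis and folding had members in both ribosomal subunits, the translation factors and the chaperonins. Among 110 guides to proteins of the large ribosomal subunit, 1 was lost in both (0.909%, exact interval 0.023% to 4.96%, against 0.158% of all eligible guides), to RPL15, with 43 reads in RTX and 45 in DMSO, against 184 at day 0. Of 76 guides to the small subunit, the 1 member (1.32%, interval 0.0333% to 7.11%) targeted RPS25, with 20 reads in RTX and 47 in DMSO, against 208 at day 0. Counted in each culture by itself, 1 guide of the large and 1 of the small subunit were lost in RTX, against 14 and 10 in DMSO, where 0.477% of all eligible guides were lost in RTX and 1.3% in DMSO. Translation factors had 1 member among 103 guides (0.971%, interval 0.0246% to 5.29%), to the initiation factor EIF1AX, which had 25 reads in RTX and 0 in DMSO, against 102 at day 0. Ribosome assembly factors (0 of 237 guides), RNA polymerases I and III (0 of 87), tRNA synthetases (0 of 110), Elongator and tRNA modification (0 of 79) and the signal recognition particle with RNase P (0 of 48) had no member. In these 5 lists 0, 0, 2, 0 and 0 guides were lost in RTX, against 42, 11, 12, 5 and 8 in DMSO, beside the same shares of 0.477% in RTX and 1.3% in DMSO over all eligible guides, and the difference was not tested. In the chaperonin list, 2 of 69 guides (2.9%, interval 0.353% to 10.1%) were lost in both. HSPE1, the mitochondrial co-chaperonin, had 58 reads in RTX and 61 in DMSO, against 351 at day 0. PFDN2, a subunit of prefoldin, had 24 reads in RTX and 42 in DMSO, against 151 at day 0.

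The mitochondrial ribosome had 1 of 194 guides lost in both (0.515%, interval 0.013% to 2.84%, against 0.158% of all eligible guides), to MRPL44, with 17 reads in RTX and 15 in DMSO, against 98 at day 0. The respiratory chain had 0 of 241 and iron-sulfur cluster assembly 0 of 48, which allows shares of up to 1.24% and 6.25%. Outside the lists, PMPCA, which trims imported mitochondrial proteins, had 71 reads in RTX and 74 in DMSO, against 344 at day 0. SLIRP, which stabilizes mitochondrial messenger RNA, had 31 reads in RTX and 35 in DMSO, against 139 at day 0. Antifolate uptake and targets (0 of 22 guides) and folate, purine and deoxynucleotide synthesis (0 of 121) had no member, and these counts of 0 allow shares of up to 13.6% and 2.48%. At or below 0.5 in both cultures were 4 of the 22 guides (18.2%) and 8 of the 121 (6.61%), against 1.51% of all eligible guides.

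The vacuolar proton pump, which acidifies lysosomes, had 2 members among 41 guides (4.88%, interval 0.596% to 16.5%, against 0.158% of all eligible guides). ATP6V1B2 had 10 reads in RTX and 19 in DMSO, against 114 at day 0. ATP6V0D1 had 24 reads in RTX and 0 in DMSO, against 100 at day 0, with other guides at 0.803 and 0.527 in RTX and 0.387 and 0.413 in DMSO. WDR7, a partner of the pump, had 55 reads in RTX and 77 in DMSO, against 289 at day 0. Guides to other ion transporters were members too. ATP7A, a copper pump, had 45 reads in RTX and 66 in DMSO, against 436 at day 0. ATP2A2, the calcium pump of the endoplasmic reticulum, had 29 reads in RTX and 29 in DMSO, against 138 at day 0, and its second guide had 106 in RTX and 75 in DMSO, against 234 at day 0.

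Members outside the 25 lists numbered 53, and 3 more lists were drawn up after their values were seen. Asparagine-linked glycosylation, which builds a sugar chain on a lipid carrier and moves it to new proteins in the endoplasmic reticulum, held 5 members among 97 guides (5.15%, exact interval 1.69% to 11.6%, against 0.158% of all eligible guides); as this list and the next 2 were made from the members, their shares are descriptions only. ALG2, a mannosyltransferase of this pathway, had 30 reads in RTX and 9 in DMSO, against 335 at day 0, and a second ALG2 guide had 282 in RTX and 244 in DMSO, against 750 at day 0. The remaining ALG2 guide had ratios of 0.654 in RTX and 0.899 in DMSO. NUS1, a subunit of the enzyme that makes the lipid carrier, had 39 reads in RTX and 5 in DMSO, against 276 at day 0, but the other NUS1 guides had 237 and 237 in RTX and 120 and 83 in DMSO, against 86 and 120 at day 0. DAD1, a subunit of the transferase, had 0 reads in RTX and 33 in DMSO, against 166 at day 0. TMEM258, of the same transferase, had 22 reads in RTX and 23 in DMSO, against 106 at day 0. DPAGT1, which starts the chain, had 37 reads in RTX and 44 in DMSO, against 177 at day 0. Each of these 5 genes was represented by 1 member, and the other NUS1 guides were higher in RTX than at day 0.

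Vesicle traffic held 7 members among 128 guides (5.47%, interval 2.23% to 10.9%, against 0.158%). TRAPPC4, of a complex that tethers vesicles, had 19 reads in RTX and 18 in DMSO, against 208 at day 0. Its other guides, under the day 0 minimum, had ratios of 0 and 0.424 in RTX and 0.174 and 1.15 in DMSO. SCFD1, which regulates fusion between the endoplasmic reticulum and the Golgi, had 10 reads in RTX and 18 in DMSO, against 133 at day 0. Its other guides had ratios of 1.05 and 0.525 in RTX and 1.01 and 1.16 in DMSO. STX4 and SNAP23, fusion proteins of the plasma membrane, had 22 and 14 reads in RTX and 13 and 15 in DMSO, against 116 and 137 at day 0. Both had a second guide at or below 0.5 in each culture, the SNAP23 one with 66 reads in RTX and 46 in DMSO, against 133 at day 0. The STX4 one had 56 reads at day 0, under the minimum. The remaining guides had ratios of 0.995 in RTX and 0.19 in DMSO for STX4 and of 0.843 and 0.61 for SNAP23. NAPG, which helps to take apart spent fusion complexes, had 33 reads in RTX and 35 in DMSO, against 152 at day 0. Its other guide had ratios of 0.668 in RTX and 0.543 in DMSO. COPB2, of the coat of retrograde vesicles, had 20 reads in RTX and 22 in DMSO, against 98 at day 0, with other guides at 0.873 and 0.324 in RTX and 1.72 and 0.398 in DMSO. CHMP3, of the membrane-cutting ESCRT-III complex, had 67 reads in RTX and 67 in DMSO, against 331 at day 0, with other guides at 0.682 and 0.868 in RTX and 0.724 and 0.456 in DMSO.

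Tubulin folding cofactors held 2 members among 13 guides (15.4%, interval 1.92% to 45.4%, against 0.158%). TBCC had 109 reads in RTX and 80 in DMSO, against 485 at day 0. TBCD had 67 reads in RTX and 52 in DMSO, against 299 at day 0, and a second TBCD guide had 85 in RTX and 91 in DMSO, against 263 at day 0. The guides to GPX4 and GCLM were outside all lists. GPX4, which reduces lipid peroxides, had 185 reads in RTX and 182 in DMSO, against 841 at day 0, and its other guides had ratios of 0.549 and 0.821 in RTX and 0.551 and 1.1 in DMSO. GCLM, the modifier subunit of the first enzyme of glutathione synthesis, had 30 reads in RTX and 30 in DMSO, against 122 at day 0, with other guides at 0.527 and 0.713 in RTX and 1.43 and 0.887 in DMSO.

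The members that follow were also outside all lists. THAP1, a zinc-finger transcription factor, had the second lowest ratio of the summed day 14 values to the summed day 0 values (0.0403), with 4 reads in RTX and 7 in DMSO, against 128 at day 0. Another THAP1 guide had 27 reads in RTX and 89 in DMSO, against 179 at day 0. E4F1, also a transcription factor, had 55 reads in RTX and 119 in DMSO, against 495 at day 0. SS18L2 had 20 reads in RTX and 21 in DMSO, against 109 at day 0, and a second guide had 67 in RTX and 3 in DMSO, against 166 at day 0. Guides to SBNO1 and ECD had 25 and 16 reads in RTX and 39 and 57 in DMSO, against 150 and 205 at day 0. BRAT1, a partner of the damage kinase ATM, had 62 reads in RTX and 71 in DMSO, against 296 at day 0.

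The remaining members targeted genes outside these functions, or genes with near copies. BTBD17 had 155 reads in RTX and 103 in DMSO, against 708 at day 0, while its other guides had ratios of 1.02 and 0.848 in RTX and 1.03 and 0.757 in DMSO. TBX6, a transcription factor of the embryonic mesoderm, had 43 reads in RTX and 44 in DMSO, against 344 at day 0, with other guides at 0.876 and 0.696 in RTX and 1.13 and 0.8 in DMSO. HDGFRP3 had 87 reads in RTX and 91 in DMSO, against 420 at day 0, with other guides at 0.725 and 0.699 in RTX and 1.08 and 1.32 in DMSO. TCEANC had 15 reads in RTX and 15 in DMSO, against 106 at day 0, with other guides at 1.67 and 1.47 in RTX and 0.815 and 0.857 in DMSO. TNIP3, an inhibitor of NF-kappaB signalling, had 26 reads in RTX and 46 in DMSO, against 315 at day 0. In these 5 genes the loss thus rested on 1 guide. This was not particular to them: of all 83 targets, 27 had another guide, of any day 0 value, at or below 0.5 in both cultures. That count was not made over all screened targets. FAM86B1 and TBC1D3F belong to families of near-identical copies. Whether their guides match several loci was not tested, as guide sequences were not used. The FAM86B1 guide, the only one in the tables, had 23 reads in RTX and 19 in DMSO, against 100 at day 0. The lost TBC1D3F guide had 24 in RTX and 29 in DMSO, against 119 at day 0, and its other guide had ratios of 0.927 in RTX and 0.349 in DMSO.

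RTX and DMSO at day 14 were also set against each other for the 85 members. Both libraries entered the rule, so these counts describe the members and nothing is read from them. In RTX 57 members were higher than in DMSO and 28 were lower, where 49.9% of all eligible guides were higher. The median log2 ratio of RTX over DMSO, with 1 added to both values, was 0.135, with quartiles of -0.171 and 0.696, against a median of -0.00173 over all eligible guides. By the authors' deposited table for these libraries, 14 members were higher at an FDR under 0.05 and 1 was lower, where 13.4% and 4.45% of eligible guides were called. The 14 were guides to EIF1AX, ATP6V0D1, PSMA3, hsa-mir-6859-2, PKMYT1 (HGLibA_44123), NUS1, MAD2L1, PSMC3, RBM14, CDC27, ALG2, SMC2, hsa-mir-1304 and UBE2N, and the 1 lower was that to DAD1. For EIF1AX, ATP6V0D1 and hsa-mir-6859-2 the count in DMSO was 0, and for DAD1 that in RTX was 0.

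Loss in both cultures varied with abundance at day 0. Of guides with day 0 values from 100 to below 150, 29 of 7509 were lost in both (0.386%, exact interval 0.259% to 0.554%). From 150 to below 200 it was 16 of 7956 (0.201%), from 200 to below 300 it was 14 of 14319 (0.0978%), from 300 to below 500 it was 19 of 16730 (0.114%), and from 500 upwards 7 of 7195 (0.0973%, interval 0.0391% to 0.2%). The members had a median of 180 reads at day 0, against 261 for all eligible guides, 191 for guides lost in DMSO only and 146 for guides lost in RTX only. The part of low abundance in the loss was not tested.

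Chromosomes of the targets were taken from RefSeq, which placed 49661 of 52859 eligible targeting guides and all 85 members, or 0.171% of the placed guides. The share lost in both was highest on chromosome 16, with 8 of 2052 guides (0.39%, exact interval 0.168% to 0.767%), to ATP6V0D1, CDIPT, E4F1, PKMYT1, STX4, TBX6 and hsa-mir-1972-1, and the 0.171% over all placed guides lay inside that interval. Chromosome 14 followed with 6 of 1651 (0.363%, interval 0.133% to 0.789%) and chromosome 19 had 1 of 3635 (0.0275%, interval 0.000696% to 0.153%), the guide to GPX4. Chromosomes 20 and 21 had no member among 1388 and 574 guides, which allows shares of up to 0.216% and 0.523%. Of targets that were neighbours with at most 9 screened genes between them there were 4 pairs: RPS25 and TRAPPC4, TRAPPC4 and DPAGT1, SUPT16H and DAD1, and MAD2L1 and TNIP3. How many such pairs equally many targets drawn at random would give was not counted, so no clustering is read from the 4. RPS25 and TRAPPC4 were adjacent, lie on opposite strands and point away from each other, with starts 423 bases apart on GRCh38.p14. Whether the neighbourhood of these guides bears on their loss was not tested.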

How the data were processed

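Guide tables of 3 libraries of genomic DNA, 1 per group, were used. The submitters' processing notes name MAGeCK 0.5.7 and the build hg19; the read-to-guide step they used is not given in these sources. The deposited tables hold, per the file headers, a control and a treatment signal for every guide, which are read counts that the authors scaled with a size factor for each library of a pair, and the authors' FDR (q-values). Ratios were taken within a table from the deposited values. Whole reads were recovered as multiples of the lowest step; at least 99.9984% of a library's values came out whole (tolerance 0.1). Reads printed are these, and ratios are of normalized values. Depth was 16547572 to 18805737 reads per library. Shares have exact (Clopper-Pearson) 95% intervals, and a share of 0 is limited by 3 counts. The rule was tested on simulated reads with counting error only and with losses deeper than those of most members. Such reads do not show how the rule performs near its limits. Chromosomes, microRNA sequences and gene order came from RefSeq tables (GRCh38.p14), which match symbols and synonyms, and the guides' own sequences were not used here. The members, the lists and the rule were chosen with earlier results of these data known. The rule for named genes took genes whose eligible guides (at least 2) were all lost (none met this), the 10 most depleted guides, members of the lists and guides beside the limits; all other members named were chosen after their values were seen. A count test, edgeR 4.0.16 (exact test, 1 dispersion from the non-targeting guides) on recovered reads, called 75 guides lower in both comparisons, which compares libraries and not conditions. Python 3.11.15, scipy 1.17.1 and R 4.3.3 were used. One member is not reported here.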

Additional observations from a re-analysis of the deposited data

How the results depend on the processing

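The 85 guides depended on the limits. With a day 0 minimum of 50 there were 132 and with 200 there were 40. A ratio of at most 0.1 left 4 guides, those to SF3A3, THAP1, ALG2 and TRAPPC4, and a ratio of at most 0.5 gave 813. Equal library totals gave 91, scaling to the non-targeting guides 110 and a pseudocount of 5 gave 62. Also asking for the authors' FDR under 0.05 in both tables left 85, and the count test on recovered reads called 75, of which 68 were among the 85. Both use the same 3 libraries as the rule and are no separate evidence of loss. No non-targeting guide was lost under any of these settings except the ratio of at most 0.5, where 4 were. The 2 genes with 2 lost guides became 0 with a day 0 minimum of 200, 0 at a ratio of at most 0.1, 1 with a pseudocount of 5 and 83 at a ratio of at most 0.5. The share of the guides of the 25 lists that was lost in both, 1.16%, was 0.739% with a minimum of 200, 0.0361% at a ratio of at most 0.1 and 9.61% at a ratio of at most 0.5. Over all eligible guides the share moved the same way, from 0.158% to 0.105%, 0.00745% and 1.51% under these settings. Of 156 values of single lists, olfactory receptors included, under 6 alternatives, 114 stayed within the counting interval of the main value, and 22 of the 42 that did not were at the ratio of at most 0.5. No paired analysis was possible because each group has 1 library. Depth limits the members near the day 0 minimum most: 100 normalized units are fewer than 100 reads, and a ratio of 0.25 is then few reads.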
